A study of Homo sapiens with 6 samples.

Results

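The glucocorticoid receptor and its target genes were followed in the human lung fibroblast line MRC5 through 10 members. These are *NR3C1*, which encodes the receptor, *HSD11B1*, which encodes the enzyme that turns inactive cortisone into cortisol, and the common targets *FKBP5*, *TSC22D3*, *KLF9*, *ZBTB16*, *ERRFI1-DT*, *CRISPLD2*, *SGK1* and *NFKBIA*. The members were taken by gene symbol from the 58676 gene identifiers of the count table, and all 10 were found. In 3 libraries (control ATII CM, or control CM), MRC5 cells had been kept for 24 h in conditioned media (CM) of control ATII ER:KRASV12 cells, an alveolar epithelial type II line in which 4-hydroxytamoxifen (4-OHT) switches on an oncogenic RAS protein. In the other 3 libraries (4-OHT ATII CM, or 4-OHT CM), the CM came from the same line after 4-OHT, and nothing else differed by the labels. Both groups therefore had medium from a RAS-inducible line, fibroblasts of a single cell line, and the labels name no added TGF-β or glucocorticoid for either. An action of RAS-induced factors and of 4-OHT carried over in the CM cannot be told apart in this design, and the steroid content of the media was not measured here.

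Glucocorticoids such as cortisol enter the cell and bind the receptor, which chaperones of the HSP90 complex hold ready in the cytoplasm. The bound receptor moves to the nucleus, where it raises some genes from palindromic response elements and lowers others, many of them inflammatory, by interfering with AP-1 and NF-kB. Lung fibroblasts carry the receptor, and glucocorticoids restrain their cytokine output. Several of the targets answer other signals too, as *NFKBIA* does NF-kB and *KLF9* thyroid hormone and progesterone.

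The libraries held 17691849 to 26389449 counts, 3 to a group, so that abundant genes had little counting error and genes of few counts had much. The labels do not say that replicates were separate cultures, and p-values measure the spread between these libraries only. All 9 fibroblast markers were well expressed, and their sum, most of it *COL1A1* and *COL1A2*, was 37213 to 40733 CPM in control CM and 38233 to 39697 CPM in 4-OHT CM. Of the 9, edgeR called 3 higher in 4-OHT CM, *LUM* (22.4% above its control mean, adjusted p = 3.99e-05), *PDGFRA* (16.5%, adjusted p = 0.00343) and *COL3A1* (13.3%, adjusted p = 0.000463). It called *VIM* lower, by -6.71% (adjusted p = 0.0414), and the other 5 were not called. The lung mesenchyme factors *TBX4*, *TBX5* and *FOXF1* summed to 419 to 441 CPM and 461 to 491 CPM, higher in every 4-OHT library. Most of this sum was *FOXF1*, which was called (10.7% higher, adjusted p = 0.0154 from edgeR). *TBX4* overlapped between groups, and neither it nor *TBX5* was called (adjusted p = 0.666 and 0.0897 from edgeR). The part of these markers in the results was not tested. Of 11 epithelial markers, 5 were at 0 in every library (*KRT5*, *KRT14*, *SFTPA1*, *NKX2-1* and *ESRP1*), and the list summed to 2.38 to 3.09 CPM and 1.71 to 2.73 CPM. Endothelial markers summed to 0.328 to 0.56 CPM and 0.228 to 0.521 CPM with *PECAM1* and *CDH5* at 0. Immune markers summed to 0.796 to 1.10 CPM and 1.14 to 1.94 CPM, higher in every 4-OHT library, with *CD3E* at 0. Most of this sum was *CD14*, with means of 0.766 and 1.48 CPM (adjusted p = 0.0597 from edgeR, not called). *PTPRC*, *CD79A* and *LYZ*, on few counts, had lower means in 4-OHT CM than in control CM. The part of the immune markers in the results was not tested either. Control CM replicate 2, the library of fewest counts, stood apart on the second principal component (23.3% of the variance), and values without it are given where they change a call.

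Promoters are shown for the 2 members that rose (*KLF9* and *CRISPLD2*), for *FKBP5*, which did not pass the test, and for *NFKBIA*, the only member with a match to an NF-kB motif. Each run is the 250 bases before a RefSeq transcription start on GRCh38.p14, written 5′ to 3′ on the gene's strand. *KLF9* lies at chr9:70414658-70414907 on the minus strand, *CRISPLD2* at chr16:84819735-84819984 on the plus strand, *FKBP5* (the start nearer its coding exons) at chr6:35688916-35689165 on the minus strand and *NFKBIA* at chr14:35404750-35404999 on the minus strand. Capitals mark matches to the kB motif or the TATA box.
KLF9: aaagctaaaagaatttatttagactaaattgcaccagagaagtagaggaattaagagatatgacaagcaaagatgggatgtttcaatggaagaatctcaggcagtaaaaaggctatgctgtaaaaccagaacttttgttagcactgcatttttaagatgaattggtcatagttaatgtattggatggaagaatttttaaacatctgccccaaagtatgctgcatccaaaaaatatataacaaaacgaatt
CRISPLD2: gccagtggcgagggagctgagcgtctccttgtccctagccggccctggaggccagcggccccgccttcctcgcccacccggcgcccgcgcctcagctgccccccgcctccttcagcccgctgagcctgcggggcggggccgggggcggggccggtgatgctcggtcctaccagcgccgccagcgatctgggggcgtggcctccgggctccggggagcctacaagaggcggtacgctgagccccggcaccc
FKBP5: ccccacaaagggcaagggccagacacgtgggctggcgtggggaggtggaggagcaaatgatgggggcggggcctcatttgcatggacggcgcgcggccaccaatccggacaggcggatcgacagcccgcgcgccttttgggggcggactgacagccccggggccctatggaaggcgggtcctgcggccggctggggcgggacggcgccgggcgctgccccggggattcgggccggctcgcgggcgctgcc
NFKBIA: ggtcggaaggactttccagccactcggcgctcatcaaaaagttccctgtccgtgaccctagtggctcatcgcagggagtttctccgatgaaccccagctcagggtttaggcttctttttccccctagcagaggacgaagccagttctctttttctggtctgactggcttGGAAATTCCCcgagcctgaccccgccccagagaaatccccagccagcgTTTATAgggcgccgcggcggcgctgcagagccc

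RefSeq gave 21 windows for 9 of the 10 members, and none for *ZBTB16*. Windows from 250 bases before to 50 bases after the start were searched on both strands. The full receptor palindrome, AGAACA and TGTTCT with 3 bases between them, was in 0 of the 21 member windows and in 1 of 35116 windows of all genes (0.00285%). Its looser core, GNACA and TGTNC with 3 bases between them, was also in 0 of 21, against 0.39% of all windows. A single arm of the palindrome, AGAACA, was in 1 window each of *FKBP5* and *SGK1*, at or just after the start, against 14.8% of all windows. The kB motif, GGG and TTCC with 3 bases between them, was found in *NFKBIA* alone, 81 bases before the start, against 6.52% of all windows. TATAAA was in 6 member windows, of *NFKBIA*, *NR3C1*, *SGK1* and *TSC22D3*, against 11.5% of all windows. The *KLF9* run is poor in G and C (32.4%, with 1 CpG), whereas that of *CRISPLD2* has 77.6% and 27 CpG, and the median over all windows was 58% and 11. These matches describe letters in short windows and say nothing of receptor binding, much of which is known to lie far from starts.

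Levels were compared between genes as CPM (counts scaled to the normalized library size) divided by exon length in kb. In control CM the order was *NFKBIA* (16.8 ± 0.816 CPM per kb, SD, n = 3), *CRISPLD2* (15.5 ± 0.154), *NR3C1* (9.02 ± 0.446), *KLF9* (7.99 ± 0.320), *TSC22D3* (6.11 ± 0.245), *SGK1* (4.75 ± 0.0966), *FKBP5* (1.59 ± 0.0867), *HSD11B1* (0.411 ± 0.066) and *ERRFI1-DT* (0.0464 ± 0.0209), with *ZBTB16* at 0. Neighbours in this order did not overlap in their 3 values. In 4-OHT CM *KLF9* stood above the receptor, at 10.2 ± 0.156 CPM per kb against 9.30 ± 0.121 CPM per kb (SD, n = 3 each). Exon lengths are merged over all annotated transcripts, and *FKBP5*, with 10628 bases, was the longest, so a gene whose long exons are seldom used can come out lower.

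**Figure D1:**
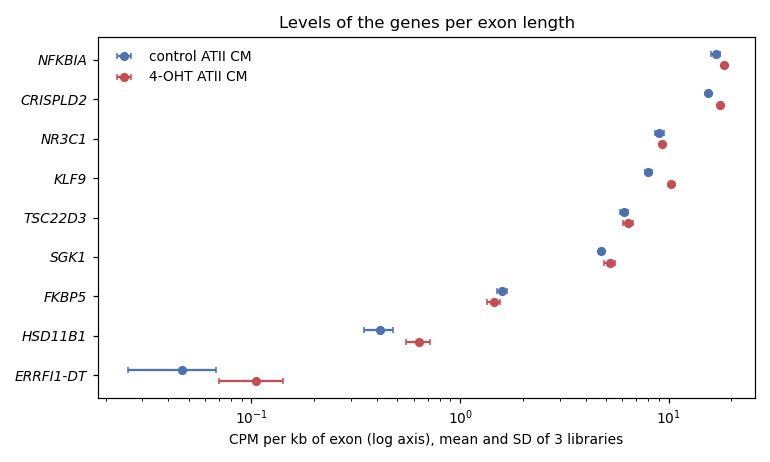
Level of each member in CPM per kb of exon (log axis), with the mean and SD of 3 libraries in control ATII CM (blue) and 4-OHT ATII CM (red); *ZBTB16*, at 0, is left out. The members span from 0.0464 to 16.8 CPM per kb in control ATII CM, and *KLF9* passes *NR3C1* in 4-OHT ATII CM.

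Between the CM groups, *KLF9* and *CRISPLD2* rose in 4-OHT CM, by 28.2% and 14.3% of their control means. The fibroblast markers called higher changed by 13.3% to 22.4% in the same libraries. The receptor *NR3C1* and the classical targets *FKBP5* and *TSC22D3* did not pass the test, and neither did *SGK1* or *NFKBIA*. *HSD11B1* and *ERRFI1-DT* had few counts, and *ZBTB16* had none. Counts of all 19072 genes with at least 10 counts over the 6 libraries were fitted together with edgeR's quasi-likelihood test, normalized by TMM, and genes with a Benjamini-Hochberg adjusted p below 0.05 were called. Log2 fold changes are 4-OHT over control, each with its standard error (SE).

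Of the 9 members tested, 2 were called (22.2%), both higher, beside 5.72% of all genes called in either direction, 2.95% higher and 2.76% lower. The number was the same with DESeq2, which gave no adjusted p for *HSD11B1* and *ERRFI1-DT*, and with limma-voom. Members called lower numbered 0 with each of the 3 tools, and 5 of the 9 members had an unadjusted p below 0.05, beside 17.3% of all genes. In 5 of 9 members the groups had no overlap in their 3 values, all higher, where 22.1% of all genes tested did not overlap. Over the 9, the median log2 fold change was 0.14, against -0.0020 over all genes tested. With 9 genes, chosen with earlier results of these data known, these shares describe the members and were given no test. In bulk RNA, more RNA per cell and more cells of an expressing kind cannot be told apart.

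**Figure D2:**
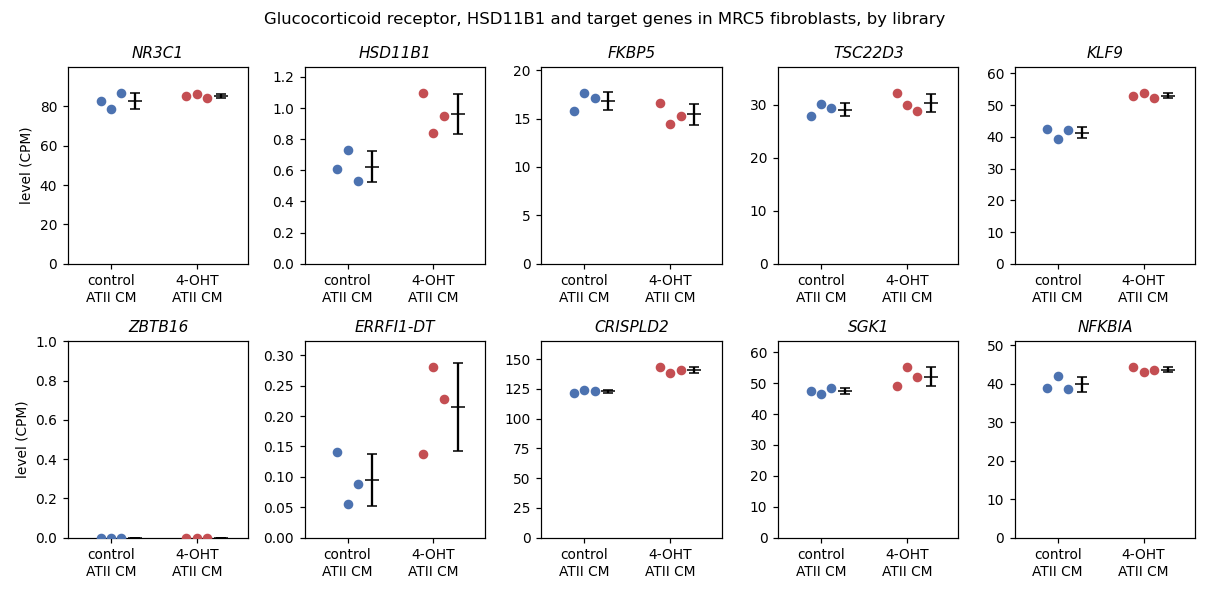
Level of the 10 members in CPM (linear axes from 0) in each library of control ATII CM (blue) and 4-OHT ATII CM (red), with the mean and SD of 3 libraries beside the points. The points of *KLF9* and *CRISPLD2* separate widely for their spread, those of *NR3C1*, *FKBP5* and *TSC22D3* overlap, and *ZBTB16* is at 0 throughout.

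*NR3C1* (ENSG00000113580) lies at 143277931 to 143435512 of chromosome 5 (GRCh38, minus strand). Its levels were 82.7, 78.6 and 86.8 CPM in control CM and 85.5, 86.2 and 84.0 CPM in 4-OHT CM. The 4-OHT values fell inside the control range. Its log2 fold change came to 0.042 (SE 0.0415, adjusted p = 0.680), and the fold had a 95% interval of 0.969 to 1.09. The estimate was 0.0084 without control replicate 2 and 0.073 without control replicate 3, not called in either. The mineralocorticoid receptor *NR3C2*, which also binds cortisol, was low, at 0.691 ± 0.0938 CPM in control CM and 0.664 ± 0.139 CPM in 4-OHT CM (SD, n = 3 each). Its adjusted p was 0.942 with edgeR, on 11 to 18 counts a library.

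*HSD11B1* (ENSG00000117594, chromosome 1, 209686178 to 209734950) had 13, 13 and 12 counts in control CM and 24, 21 and 25 counts in 4-OHT CM. On the CPM scale these were 0.609, 0.728 and 0.53 against 1.10, 0.842 and 0.951, and every 4-OHT library lay above every control library. The log2 fold change of 0.63 (SE 0.283) did not pass the adjustment (adjusted p = 0.257 from edgeR). From the summed counts, 38 against 70, the ratio was 1.55 with an exact 95% interval of 1.03 to 2.37, which covers counting error only. Its cofactor supplier *H6PD*, the enzyme that makes NADPH in the endoplasmic reticulum, was at 113 ± 2.07 CPM and 119 ± 4.29 CPM (SD, n = 3 each) with an adjusted p of 0.365. The inactivating enzyme *HSD11B2* had 5 counts over the 6 libraries, 2 of them in control CM, and was not tested. Among the 7 genes of ligand supply, receptors included, 5 were tested and 0 were called by edgeR, DESeq2 or limma-voom, beside 5.72% of all genes, which with 5 genes is no result about them. DESeq2 gave no adjusted p for *HSD11B1* and *NR3C2*. With edgeR 1 gene of the 5, *HSD11B1*, had an unadjusted p below 0.05, beside 17.3% of all genes.

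*KLF9* (ENSG00000119138, chromosome 9, 70384597 to 70414624) encodes a zinc finger transcription factor that the receptor induces in many tissues. Its levels were 42.3, 39.4 and 42.3 CPM in control CM and 53.0, 53.8 and 52.2 CPM in 4-OHT CM. The groups were far apart for their spread, and control replicate 2 was the lowest library. On the log2 scale the change was 0.36 (SE 0.0438, adjusted p = 0.000162 from edgeR), a fold of 1.28 with a 95% interval of 1.20 to 1.36. *KLF9* was called in each of 13 alternative fits, with adjusted p from 1.166e-11 to 0.00288 and log2 fold changes from 0.32 to 0.37. By the root mean square difference of centred log2 CPM over the 6 libraries, the profiles nearest to it among 9202 genes of at least 10 CPM were those of *C1S*, *SNED1*, *ARHGAP28*, *SLC9A9* and *A2M* (0.0246 to 0.0323).

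*CRISPLD2* (ENSG00000103196, chromosome 16, 84819984 to 84920768) encodes a secreted protein of lung mesenchyme that glucocorticoids raise in airway cells. It was at 122, 124 and 123 CPM in control CM and 143, 138 and 141 CPM in 4-OHT CM. The lowest 4-OHT library lay well above the highest control library. The fitted log2 change was 0.19 (SE 0.0351, adjusted p = 0.00349 from edgeR), a fold of 1.14 with a 95% interval of 1.09 to 1.20. It too was called in each of 13 alternative fits (adjusted p from 4.213e-05 to 0.0279). Exons of 2 antisense genes overlap 1.23% and 2.59% of its exon bases, with 7 and 6 counts in all.

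*FKBP5* (ENSG00000096060, chromosome 6, 35573585 to 35728583) encodes a cochaperone that binds HSP90 and lowers the receptor's affinity for hormone, a short feedback loop. It was at 15.8, 17.6 and 17.1 CPM in control CM and 16.6, 14.5 and 15.3 CPM in 4-OHT CM. The groups overlapped through control replicate 1 and 4-OHT replicate 1. The log2 fold change was -0.13 (SE 0.0761, adjusted p = 0.440 from edgeR), and its 95% interval ran from -0.29 to 0.035. *FKBP5* was not called in any of 13 alternatives.

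*TSC22D3* (ENSG00000157514, chromosome X, 107713221 to 107777342) encodes the glucocorticoid-induced leucine zipper protein, which binds NF-kB and AP-1 subunits. Its levels were 27.9, 30.2 and 29.3 CPM in control CM and 32.2, 30.04 and 28.9 CPM in 4-OHT CM. Only 4-OHT replicate 1 lay above the control range. Its log2 fold change came to 0.061 (SE 0.0573, adjusted p = 0.666 from edgeR), with a 95% interval from -0.061 to 0.18. The gene has 4 RefSeq starts, and counts per gene do not separate its long and short transcripts.

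*SGK1* (ENSG00000118515, chromosome 6, 134169246 to 134318112) encodes a kinase that acts beside AKT and is induced by glucocorticoids, mineralocorticoids and serum. It was at 47.3, 46.5 and 48.5 CPM in control CM and 49.0, 55.3 and 52.2 CPM in 4-OHT CM. Control values were tight, and the 4-OHT libraries lay above them with a wider spread. The log2 fold change of 0.14 (SE 0.0478) had an adjusted p of 0.124 from edgeR. The adjusted p was 0.0468 without 4-OHT replicate 1, the lowest of its group, and 0.0379 with every gene of at least 1 count kept, and *SGK1* was not called in the other 11 alternatives.

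*NFKBIA* (ENSG00000100906, chromosome 14, 35401511 to 35404749) encodes the inhibitor that keeps NF-kB in the cytoplasm. Its levels were 38.9, 42.2 and 38.7 CPM in control CM and 44.4, 43.1 and 43.5 CPM in 4-OHT CM. Control replicate 2 was the only control library near the 4-OHT values, yet the groups did not overlap. The log2 fold change of 0.13 (SE 0.0469) had an adjusted p of 0.136 from edgeR, and without control replicate 2 it was 0.17 with an adjusted p of 0.0294. A list of 11 genes of NF-kB feedback was fixed, which holds some of the NF-kB subunits but not all. All 11 were tested and 0 were called by edgeR, DESeq2 or limma-voom, beside 5.72% of all genes. At an unadjusted p below 0.05 there were 5, beside 17.3% of all genes, and in 6 of the 11 (54.5%) the groups did not overlap, 4 higher and 2 lower, beside 22.1% of all genes. Their median log2 fold change was 0.049, with 7 higher and 4 lower.

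*ERRFI1-DT* (ENSG00000238290, chromosome 1, 8026738 to 8122702) gives a long noncoding RNA and starts next to *ERRFI1*, a feedback inhibitor of the EGF receptor, and runs the other way. It had 3, 1 and 2 counts in control CM and 3, 7 and 6 counts in 4-OHT CM. The ratio of the sums, 6 against 16, was 2.25 with an exact 95% interval of 0.835 to 7.01, which covers counting error only. With edgeR the log2 fold change was 1.13 (SE 0.665, adjusted p = 0.430), and the groups overlapped. *ERRFI1* itself was at 152 ± 2.99 CPM in control CM and 155 ± 4.31 CPM in 4-OHT CM (SD, n = 3 each), with an estimate near 0 (log2 fold change 0.025, adjusted p = 0.793 from edgeR).

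*ZBTB16* (ENSG00000109906, chromosome 11, 114059593 to 114250676) encodes a zinc finger repressor that is among the most strongly induced glucocorticoid targets in many cell types. It had 0 counts in all 6 libraries. A count of 0 allows up to 3 counts a library, which is 0.114 CPM in the deepest library and 0.170 CPM in the shallowest, so no comparison was possible.

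Dividing by the receptor's reads in the same library removes the scaling between libraries. There were 51.2, 50.1 and 48.7 reads of *KLF9* per 100 reads of *NR3C1* in control CM and 61.9, 62.4 and 62.1 in 4-OHT CM. The 4-OHT libraries agreed to within 0.226 (SD) and lay apart from control. For *CRISPLD2* the values were 147, 158 and 142 against 168, 160.2 and 167, with the groups separate by a narrow margin. *SGK1*, *NFKBIA*, *TSC22D3* and *FKBP5* overlapped between groups on this scale. For *KLF9* and *CRISPLD2* the exact two-sided permutation p was 0.1, the smallest that 3 libraries against 3 allow, and over the 6 genes compared the adjusted value was 0.3. For *TSC22D3* the mean was 35.3 ± 2.67 against 35.6 ± 1.79 (SD, n = 3 each), and for *FKBP5* 20.4 ± 1.77 against 18.1 ± 1.30.

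**Figure D3:**
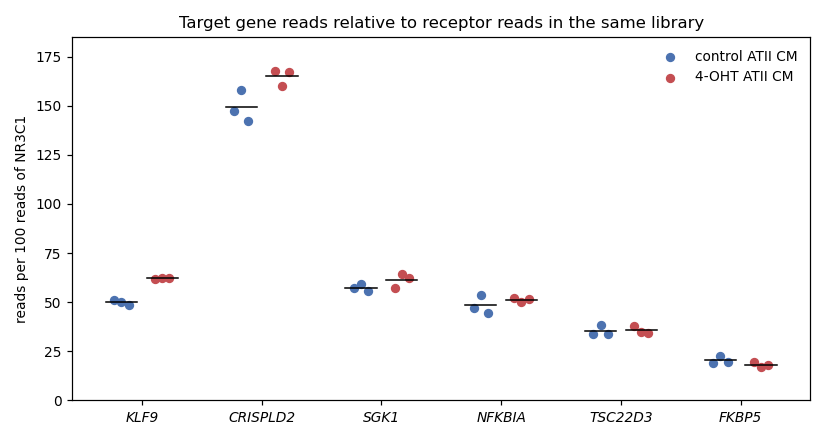
Reads of 6 target genes per 100 reads of *NR3C1* in the same library (linear axis from 0), with a point per library and a line at the mean of 3 libraries, control ATII CM in blue and 4-OHT ATII CM in red. *KLF9* moves from a mean of 50.0 to 62.1, while the points of *TSC22D3* and *FKBP5* overlap between groups.

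Beyond the members, genes widely known to be raised by glucocorticoids in some cell type were mostly not called, and those called were mostly higher. In a list of 50 such genes, which holds 8 of the members, 10 rose and 1 fell in 4-OHT CM. The textbook early targets *PER1* and *DUSP1* were not among them at 24 h, the only time sampled. The list had 39 genes tested, so 25.6% were called higher beside 2.95% of all genes. It was chosen with earlier results of these data known, so its shares describe the list and were given no test. Genes of at least 10 CPM are called more often: 5.54% of all such genes were higher, beside 9 of 29 in the list. Over the 39, the median log2 fold change was 0.13, with 26 higher and 13 lower. An unadjusted p below 0.05 from edgeR was found for 23 of them, beside 17.3% of all genes. In 19 (48.7%) the groups did not overlap, 17 higher and 2 lower, beside 22.1% of all genes. Without the 8 members, 32 genes were tested, 8 rose and 1 fell, and the median was 0.10. The number called in the list was 11, with 1090 of all genes called. It was 7 without 4-OHT replicate 2 (533 of all genes) and 7 without 4-OHT replicate 3 (615 of all genes). Without control replicate 2 it was 14 (1530 of all genes). Where every gene with at least 1 count was kept it was 18 (1601 of all genes, or 5.77% of the 27749 fitted).

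*STOM*, which encodes the membrane protein stomatin, had the smallest adjusted p of the list, at 655, 663 and 656 CPM in control CM and 772, 762 and 782 CPM in 4-OHT CM. Its log2 fold change was 0.23 (SE 0.0277, adjusted p = 0.000135 from edgeR). The transcription factors *CEBPD* and *CEBPB*, which cooperate with the receptor on many promoters, rose by log2 fold changes of 0.25 and 0.13 (adjusted p = 0.00128 and 0.0377). *CEBPD* was at 165, 181 and 182 CPM against 210, 206 and 213 CPM, and *CEBPB* at 146, 145 and 149 CPM against 164, 157 and 163 CPM, so that neither overlapped. The call of *CEBPD* was kept in 13 of 13 alternatives and that of *CEBPB* in 7. *CEBPB* lost it with the replicate block (adjusted p = 0.0553 from edgeR) and without any single library but control replicate 2 (adjusted p from 0.0637 to 0.182). Exons of the opposite-strand *CEBPB-AS1*, with 45 counts, cover 11.8% of its exon bases.

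*IL6R*, which encodes a receptor chain for interleukin-6, had means of 31.3 ± 1.73 and 39.2 ± 1.51 CPM (SD, n = 3 each) and rose by 0.32 on the log2 scale (adjusted p = 0.00181 from edgeR). *GLUL*, which encodes glutamine synthetase, had means of 123 ± 5.84 and 142 ± 2.81 CPM and rose by 0.21 (adjusted p = 0.00552). *RGS2*, a brake on G protein signaling, and *SAMHD1*, which breaks down deoxynucleotides, rose by 0.23 and 0.18 on the log2 scale (adjusted p = 0.0289 and 0.0223). *GLUL* was not called without control replicate 3 (adjusted p = 0.0543), which was the only alternative that ended its call. *RGS2* lost its call without control replicate 1 or 3 or 4-OHT replicate 2 or 3 (adjusted p from 0.0694 to 0.160 with edgeR). *SAMHD1*, with 10.3% of its exon bases shared with the opposite-strand *TLDC2* (2 counts), lost its call without control replicate 3 or 4-OHT replicate 2 or 3 (adjusted p from 0.0564 to 0.119).

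*PDK4*, which encodes a kinase that shuts off pyruvate dehydrogenase, had the largest change of the genes called in the list, a log2 fold change of 0.76 (SE 0.204, adjusted p = 0.0393 from edgeR). It was a gene of few counts, with 32, 34 and 39 in control CM and 73, 54 and 83 in 4-OHT CM. The groups were separate, but the call was kept in only 6 of 13 alternatives and was missed by DESeq2 (adjusted p = 0.0620) and limma-voom (adjusted p = 0.0620). It was also lost with the replicate block (adjusted p = 0.0520) and without control replicate 1 or 3 or 4-OHT replicate 1 or 3 (adjusted p from 0.115 to 0.154).

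*ANXA1* went the other way. It encodes annexin A1, an anti-inflammatory mediator long known as a glucocorticoid-induced protein, and was at 331, 357 and 332 CPM in control CM and 311, 295 and 305 CPM in 4-OHT CM. All 4-OHT values were below all control values, and the log2 fold change was -0.16 (SE 0.0367, adjusted p = 0.0156 from edgeR). The call was lost without 4-OHT replicate 2 or 3 (adjusted p = 0.101 and 0.0678).

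*PER1*, a clock gene that the receptor induces quickly, was at 11.7 ± 0.806 CPM and 10.9 ± 0.359 CPM (SD, n = 3 each), with an adjusted p of 0.574 from edgeR. *DUSP1*, the phosphatase that switches off p38 and JNK, was at 79.0, 92.5 and 74.5 CPM in control CM and 66.3, 78.3 and 72.6 CPM in 4-OHT CM. The 4-OHT replicate 2 lay inside the control range and the others below it, and the estimate of -0.17 (log2) had an adjusted p of 0.189. It was called lower with the replicate block (adjusted p = 0.0498) and with every gene of at least 1 count kept (adjusted p = 0.00471), and shrank to -0.082 without control replicate 2 and to -0.11 without 4-OHT replicate 1. A further 11 genes of the list had under 10 counts over the libraries and were not tested, among them the liver targets *TAT*, *PCK1* and *IGFBP1* and the leukocyte target *CD163*.

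**Figure D4:**
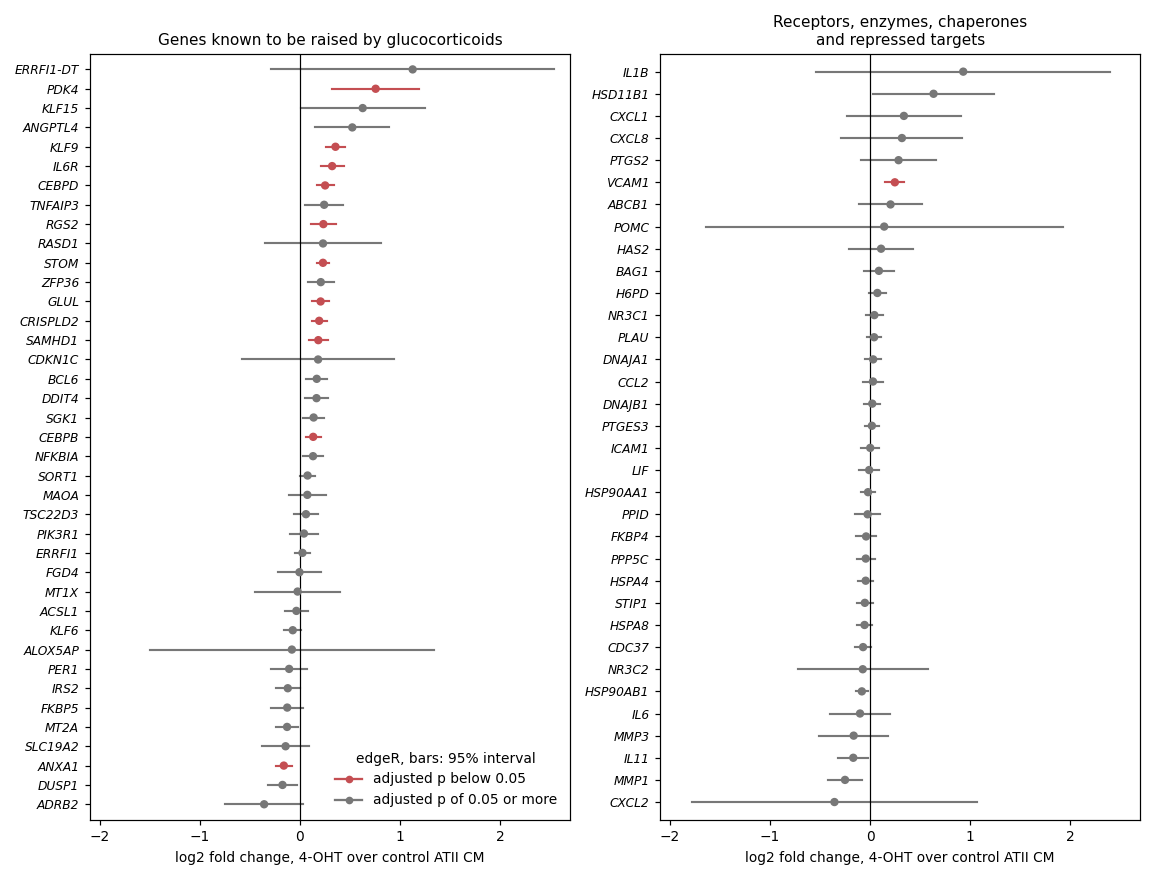
Log2 fold change of 4-OHT over control ATII CM with its 95% interval from edgeR, for the 39 tested genes known to be raised by glucocorticoids (left) and for tested genes of ligand supply, chaperones and repressed targets (right); red marks an adjusted p below 0.05. On the left 10 genes are red above 0 and *ANXA1* is red below it, and on the right only *VCAM1* is red.

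Of 20 genes known to be lowered by glucocorticoids, *NR3C1* among them, 17 were tested with edgeR, 0 were called lower (beside 2.76% of all genes) and 1, *VCAM1*, was called higher (5.88%, beside 2.95% of all genes). An unadjusted p below 0.05 was found for 3 (beside 17.3% of all genes), *VCAM1* higher and 2 genes lower. These were *MMP1*, a collagenase, and *IL11*, a profibrotic cytokine, at log2 fold changes of -0.25 and -0.17 (adjusted p = 0.0798 and 0.209 from edgeR), named after their values were seen. *VCAM1*, an adhesion molecule for leukocytes, was at 80.2, 73.0 and 79.0 CPM in control CM and 90.2, 89.5 and 96.1 CPM in 4-OHT CM, without overlap. Its log2 fold change was 0.25 (SE 0.0446, adjusted p = 0.00325 from edgeR), and it was called in each of 13 alternatives. *MMP1* was called lower without control replicate 3 (adjusted p = 0.0302) and with every gene of at least 1 count kept (adjusted p = 0.0133). *IL11* was called lower without control replicate 1 (adjusted p = 0.0450). Each of these fits thus called 2 genes of the list, beside 3.58%, 5.77% and 4.31% of all genes, in that order. The median log2 fold change among the 17 was 0.040, with 11 higher and 6 lower.

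Of 14 chaperones and cochaperones that hold the receptor ready for hormone, 14 were tested and 0 were called by edgeR, DESeq2 or limma-voom (beside 5.72% of all genes), with 1 at an unadjusted p below 0.05 (beside 17.3% of all genes). Their median log2 fold change was -0.042, with 4 higher and 10 lower. Of 16 coactivators and corepressors, 15 were tested and 1 was called (6.67%, beside 5.72% of all genes). At an unadjusted p below 0.05 there were 5 of the 15, beside 17.3% of all genes, and their median log2 fold change was -0.052, with 4 higher and 11 lower. Without control replicate 2, 5 of the coregulators were called, in a fit that called 1530 genes in all against 1090 with every library. The profiles nearest to that of *NR3C1* were those of *PIK3R4*, *TPP1*, *MOXD1*, *NSUN4* and *KIRREL1* (root mean square differences of 0.0130 to 0.0159), none of which was called.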

How the data were processed

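RNA-Seq counts of 6 libraries of MRC5 cells, 3 of control ATII CM and 3 of 4-OHT ATII CM, were analysed, with groups taken from the sample labels. The authors used Trim Galore for trimming, HISAT2 2.1.0 for mapping (GRCh38) and featureCounts 1.6.5 for counting, and deposited raw counts per gene with the merged exon length of each gene, which is the only other column used here. The annotation release, the strand setting and the treatment of reads with several hits are not given in the sources used here, so overlapping genes are less certain. Counts of 45 identifiers listed on X and Y were added, which touches no member. Symbols came from GENCODE release 44.

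Genes with at least 10 counts over the 6 libraries were fitted with edgeR 4.0.16 (R 4.3.3; TMM, quasi-likelihood test, group as the only term), with Benjamini-Hochberg adjustment over all 19072. Each SE is the log2 fold change over the root of its F. DESeq2 1.42.0, the study's tool, limma-voom (limma 3.58.1), other normalizations and filters, a replicate block and leaving out each library were the 13 alternatives, and the fits were checked on simulated counts. CPM used TMM-normalized library sizes. No library was a copy of another of its group (chi-square over its degrees of freedom, 2.12 to 6.03). Permutation tests used scipy 1.17.1. Promoter windows are RefSeq's.

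The members and lists were chosen with earlier results of these data known, and the immune markers were named after their values were seen. Named are all members, every list gene past the threshold but 1 that is not reported here, *NR3C2*, *HSD11B2*, *H6PD*, *ERRFI1*, *PER1* and *DUSP1* whatever their result, the 5 nearest profiles of *NR3C1* and of the member with the smallest p, and, chosen after their values were seen, genes of the lists at 0 or with too few counts, the markers called, *MMP1* and *IL11*.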

Additional observations from a re-analysis of the deposited data

How the results depend on the processing

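The 13 alternatives left the number of members called at 2 or 3, and *KLF9* and *CRISPLD2* were called in each. The number of all genes called was 533 without 4-OHT replicate 2, 615 without 4-OHT replicate 3, 663 without control replicate 3 and 1530 without control replicate 2, against 1090 with every library. Leaving out 1 library gave 7 to 14 induced targets against 11, 1 to 5 coregulators against 1, 1 to 2 repressed targets against 1 and 0 to 1 NF-kB feedback genes against 0. Keeping every gene with at least 1 count gave 18 induced targets, 2 coregulators and 2 repressed targets among 1601 genes called in all, and the cause was not tested. Leaving out 1 library moved the log2 fold change of *NR3C2* between -0.24 and 0.038, positive without control replicate 1 or 4-OHT replicate 2 (0.029). It moved the log2 difference of *TSC22D3* per *NR3C1*, 0.015 with every library, between -0.025 and 0.077, negative without control replicate 1 (-0.017), control replicate 3 (-0.014) or 4-OHT replicate 1, an alternative added after seeing the data. Among genes not called, leaving out 1 library moved the log2 fold change of *NR3C1* between 0.0084 and 0.073, of *FKBP5* between -0.17 and -0.084, of *TSC22D3* between 0.023 and 0.093, of *DUSP1* between -0.25 and -0.082, of *PER1* between -0.15 and -0.058, of *H6PD* between 0.042 and 0.0995 and of *ERRFI1* between 0.0032 and 0.040. Same-numbered libraries did not deviate together (correlations of -0.0145, -0.104 and -0.0931), so the numbers were not taken as pairs. With the replicate block 985 genes and 10 induced targets were called, *PDK4* and *CEBPB* lost their calls and *DUSP1* gained one. Depth limits *HSD11B1*, *ERRFI1-DT*, *NR3C2* and *PDK4*, and nothing can be said of *ZBTB16* below its floor.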
